A study of Mus musculus with 18 samples.

Results

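The T cell receptor reads antigen through variable chains that have no signalling tail of their own, and it passes the signal on through the CD3 chains and the zeta chain. The 10 genes described here encode this signalling apparatus and its coreceptors: Cd3d, Cd3e, Cd3g and Cd247 (the CD3 delta, epsilon and gamma chains and the zeta chain), Cd4, Cd5, Cd6, Lck, Zap70 and Lat. They were chosen by name and not by a cut on their values, but with earlier results of these data known. Every probe set that carries the symbol of 1 of them alone was taken. In the annotation used, 9 of the 10 genes had such a probe set, 15 probe sets in all, out of 18193 genes and 45101 probe sets in the table. Lck was not analysed here. Cd247 had 4 probe sets, Zap70 had 3, Cd4 had 2 and each other gene had 1. All 15 lay above the median signal of their own array on all 18 arrays, and all 9 genes were among the 11971 genes tested.

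The RNA came from mouse naive CD4 T cells of spleen and lymph nodes, sorted by flow cytometry as CD4+ CD44- CD62L+ CD25- cells and measured on Affymetrix expression arrays for mouse. The 6 groups, each of 3 arrays described as biological triplicates, were STAT3-deficient cells with interleukin 27 (IL-27), STAT3-deficient cells with interleukin 6 (IL-6), STAT3-deficient cells in medium alone, and wild type (WT) cells with IL-27, with IL-6 and in medium alone. Either cytokine was given at 20 ng/ml, every culture lasted 3 h, and the strain of every sample is labelled C57BL/6J. The STAT3-deficient genotype is labelled Cd4-Cre_C57BL6-STAT3<tm1Dlv> (STAT3KO): Cre is expressed under regulatory sequences of Cd4, itself 1 of the genes described, so that Stat3 is removed in T cells. The labels state neither whether WT mice carried Cre nor whether mice were pooled.

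When the receptor binds peptide on a major histocompatibility complex molecule, the kinase encoded by Lck, brought in by the CD4 coreceptor, phosphorylates the tails of the CD3 and zeta chains. The kinase encoded by Zap70 docks there and phosphorylates the adaptor LAT, on which the enzymes of the calcium, Ras and NF-kB branches assemble. CD5 and CD6 are related scavenger receptor family proteins on the T cell surface, and CD5 is known to damp the receptor's signal. IL-6 and IL-27 share the receptor chain gp130, encoded by Il6st, and activate STAT3.

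The promoters of 3 of the genes are shown because they bear on what follows: Cd5 had the largest change of all members, and Cd3g and Cd3d are neighbouring genes that start back to back and differed in their changes. Each line gives, in the direction of transcription, 250 bases before and 50 bases after the start of the gene in the RefSeq annotation of GRCm38.p6, at chr19:10738925-10739224 (minus strand) for Cd5, chr9:44980382-44980681 (minus strand) for Cd3g and chr9:44981536-44981835 (plus strand) for Cd3d. Capitals mark a match to 1 of the motifs listed below.
Cd5: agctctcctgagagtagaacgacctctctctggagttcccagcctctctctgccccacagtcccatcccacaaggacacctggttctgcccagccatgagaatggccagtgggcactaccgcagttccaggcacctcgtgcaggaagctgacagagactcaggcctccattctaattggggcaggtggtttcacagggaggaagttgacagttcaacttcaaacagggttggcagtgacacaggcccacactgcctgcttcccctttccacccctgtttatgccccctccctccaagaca
Cd3g: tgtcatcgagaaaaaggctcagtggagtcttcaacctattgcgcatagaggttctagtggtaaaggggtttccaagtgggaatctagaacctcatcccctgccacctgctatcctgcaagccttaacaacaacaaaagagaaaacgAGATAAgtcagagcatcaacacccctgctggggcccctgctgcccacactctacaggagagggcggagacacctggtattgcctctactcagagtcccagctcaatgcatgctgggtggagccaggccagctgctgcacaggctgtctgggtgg
Cd3d: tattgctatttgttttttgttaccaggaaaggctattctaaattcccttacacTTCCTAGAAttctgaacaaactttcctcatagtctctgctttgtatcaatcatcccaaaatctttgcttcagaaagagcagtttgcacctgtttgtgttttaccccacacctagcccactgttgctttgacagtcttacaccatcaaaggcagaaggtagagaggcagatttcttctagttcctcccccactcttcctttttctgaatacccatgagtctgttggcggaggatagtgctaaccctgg
The motifs, read on both strands, were the STAT type element TTCNNNGAA, its longer form with 1 more base between TTC and GAA, the interferon response type (a pair of GAAA separated by 2 bases) and the GATA type AGATAA. The table held 11 promoters for 8 of the 10 genes, Lck among them. TTCNNNGAA stood in 1 of the 11, that of Cd3d, as TTCCTAGAA at 197 bases before the start, against 8.3% of 32851 promoters. The longer STAT type form stood in the promoter of Cd3e, against 6.95% of all promoters, and AGATAA in that of Cd3g, against 11.2%. The interferon response type was in none of the 11, against 3.44%. The Cd5 window held none of the motifs. A match is a description of the letters only.

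Values are given first as the deposited signal of each array, in its linear unit, and then as the change in log2 units with the standard error (SE) of a limma model on quantile normalised values of all 18 arrays. A gene counts as higher or lower where the p-value, adjusted by Benjamini-Hochberg over all genes tested in that comparison, was under 0.05. The IL-6 and the IL-27 comparisons share their medium arrays, so they are not independent of each other. In bulk RNA, fewer cells of a type and less RNA per cell cannot be told apart.

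**Figure D1:**
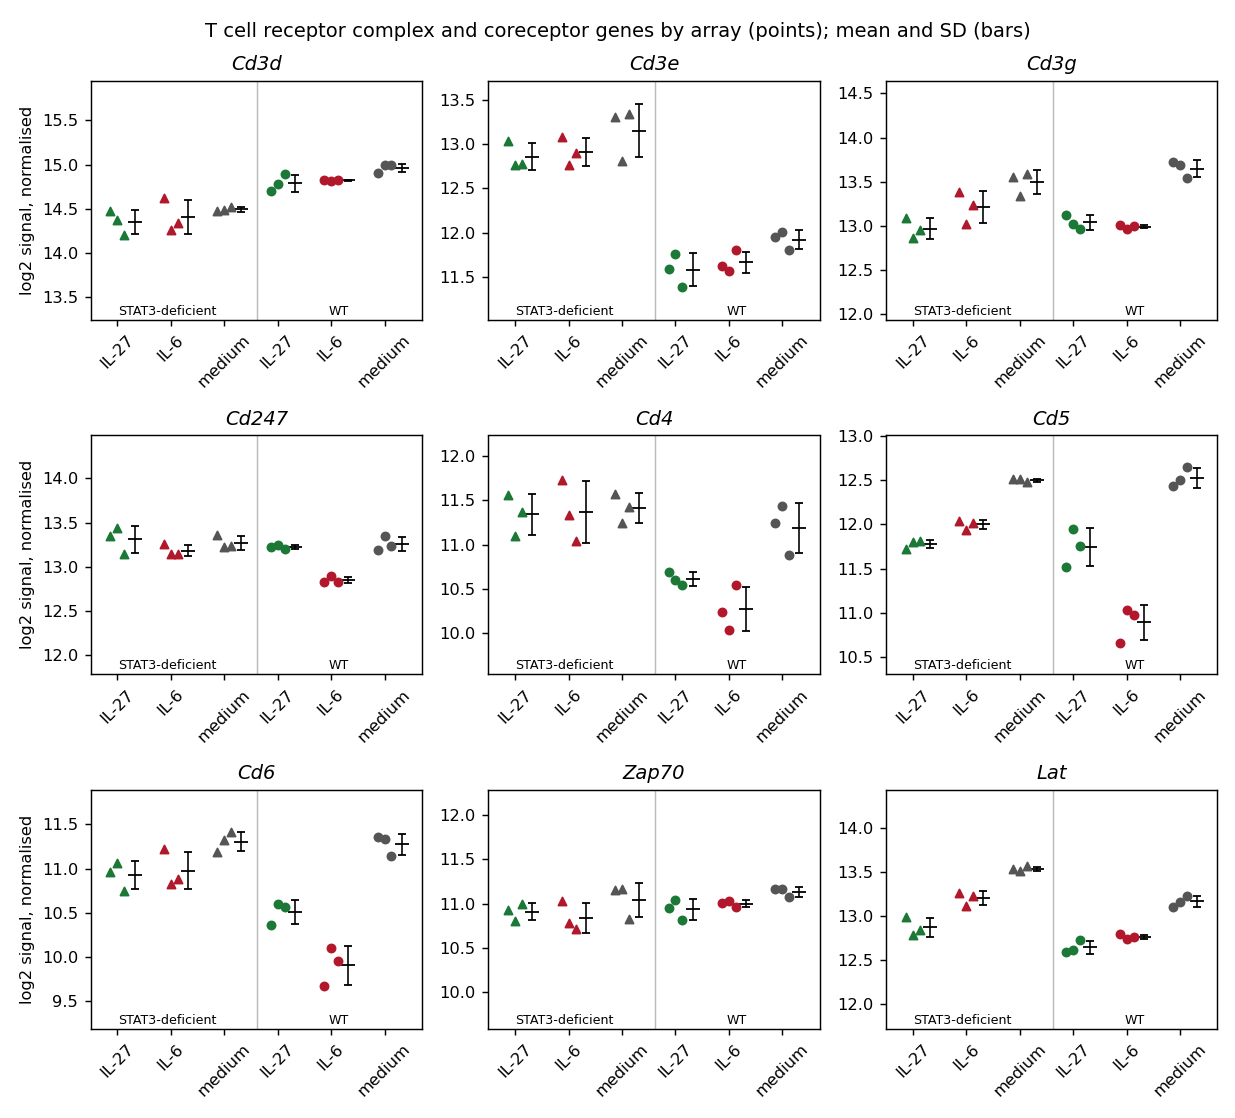
Quantile normalised log2 signal of the probe set tested for each of the 9 genes, on the vertical axis, with 1 point per array for the 6 groups of 3; triangles are STAT3-deficient and circles WT arrays, bars are the group mean and SD, and all panels span the same log2 range around their own centre. In WT cells Cd5 averages 10.89 ± 0.20 with IL-6 and 12.53 ± 0.11 in medium (SD, n = 3 each), and all STAT3-deficient arrays of Cd3e lie above all WT arrays.

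The labels were checked first. Stat3 signal in medium was 1109.7 to 1264.7 on the STAT3-deficient arrays, against 2361.4 to 3101.4 on the WT arrays, a change of -1.11 ± 0.12 (SE, n = 3 per group, limma adjusted p = 1.73e-05). In STAT3-deficient cells Stat3 signal still rose, to 3173.5 to 4637.8 with IL-27 (1.77 ± 0.12 against medium, adjusted p = 4.66e-09) and 2123.8 to 2540.4 with IL-6 (1.00 ± 0.12, adjusted p = 2.08e-05), so that with IL-27 it lay above the WT medium arrays. The labels do not say whether this probe set lies inside or outside the deleted part of the transcript. Socs3, a feedback inhibitor induced through STAT3, rose with IL-6 by 0.77 ± 0.15 in STAT3-deficient cells and by 4.18 ± 0.15 in WT cells. With IL-27 it rose by 1.43 ± 0.15 and 2.34 ± 0.15. The genotype difference of -0.91 ± 0.21 in that IL-27 effect was not called (limma adjusted p = 0.372). Of 12 listed markers of naive CD4 T cells, the 8 with a probe set lay above the array median on all 18 arrays. The summed signal of 14 listed myeloid markers was 3520 to 8240 in STAT3-deficient cells, all treatments together, and 808 to 1380 in WT cells, with S100a8 and S100a9 leading. That of the 13 measured B cell markers was 7730 to 11500 and 3760 to 6940. Ighm gave most of that sum but differed little between genotypes in medium, with means of 5580 in STAT3-deficient and 5460 in WT cells. Cd74 had means of 1230 and 336 there. Of the 13 B cell markers 4 lay above the array median on all 18 arrays (Ms4a1, Bank1, Ighm and Cd74) and 2 on none, Pax5 among them. Of the 14 myeloid markers 1 did so on all arrays (Csf1r) and 3 on none, Itgam and Cd14 among them. Of 11 markers of CD8 T and NK cells 3 did so on all (Cd8b1, Klrd1 and Prf1) and 4 on none, Ncr1 among them.

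In WT cells IL-6 lowered most of the genes of this apparatus. Of the 9 genes 6 were lower, none was higher and 3 were not called, while 4.65% of all genes tested were called lower and 8.32% were called in either direction. The median change of the 9 was -0.41, against -0.02 over all genes tested. On normalised values the arrays of both groups did not overlap for any of the 9 genes, which was the case for 25.6% of all genes tested. Cd5 and Cd6, the inhibitory receptor and its relative, fell most, followed by Cd4, Cd3g, Cd247 and Lat. Cd3d, Cd3e and Zap70 were not called. With each array centred on its median in place of quantile normalisation, Cd247 (adjusted p = 0.156) and Lat (adjusted p = 0.108) lost the call.

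IL-27 in WT cells lowered 4 of the 9 genes, Cd5, Cd6, Cd3g and Lat, while 2% of all genes tested were called lower and 4.71% in either direction. The median change was -0.52, against -0.04 over all genes. The 3 arrays of each group did not overlap for 8 of the 9, against 22.3% of all genes. With median centring Cd3g lost the call (adjusted p = 0.0621). Set directly against IL-6, IL-27 left Cd5, Cd6 and Cd247 higher, 3 of 9, while 1.77% of all genes were called higher and 3.14% in either direction. Arrays did not overlap there for 5 of the 9, against 18.5% of all genes. With median centring Cd5 was the 1 member called there, and Cd6 (adjusted p = 0.177) and Cd247 (adjusted p = 0.399) were not.

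In STAT3-deficient cells the cytokines lowered Cd5, Lat and Cd3g, with calls that depended on the scaling. With IL-6, Cd5 and Lat were lower, 2 of 9, against 0.159% of all genes called lower and 1.85% called at all, and the groups did not overlap for 2 of the 9, against 11.7% of all genes. With IL-27, Cd5, Lat and Cd3g were lower, 3 of 9, against 1.7% and 4.98%, and the groups did not overlap for 4 of the 9, against 17.5%. The median changes of the 9 were -0.24 with IL-6 and -0.30 with IL-27, against -0.03 over all genes in both comparisons. With median centring, which moved the median of all genes to 0.13 and 0.12, no member was called in either comparison, and on the deposited scale no member was called with IL-6. None of the 9 was called between IL-27 and IL-6 in STAT3-deficient cells by limma, where 0.393% of all genes were called, 2 of the 9 had an unadjusted p under 0.05, and Lat stood at -0.33 ± 0.07 (adjusted p = 0.0505).

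The test of the difference between genotypes, an interaction term, was passed by Cd5 and Cd6 for the IL-6 effect, 2 of 9 and both with a positive difference, where 1.83% of all genes passed with a positive difference and 3.08% in either direction, and 5 of the 9 had an unadjusted p under 0.05. Both calls held under every alternative tried. For the IL-27 effect none of the 9 passed with limma, none had an unadjusted p under 0.05, and 0.0167% of all genes passed.

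**Figure D2:**
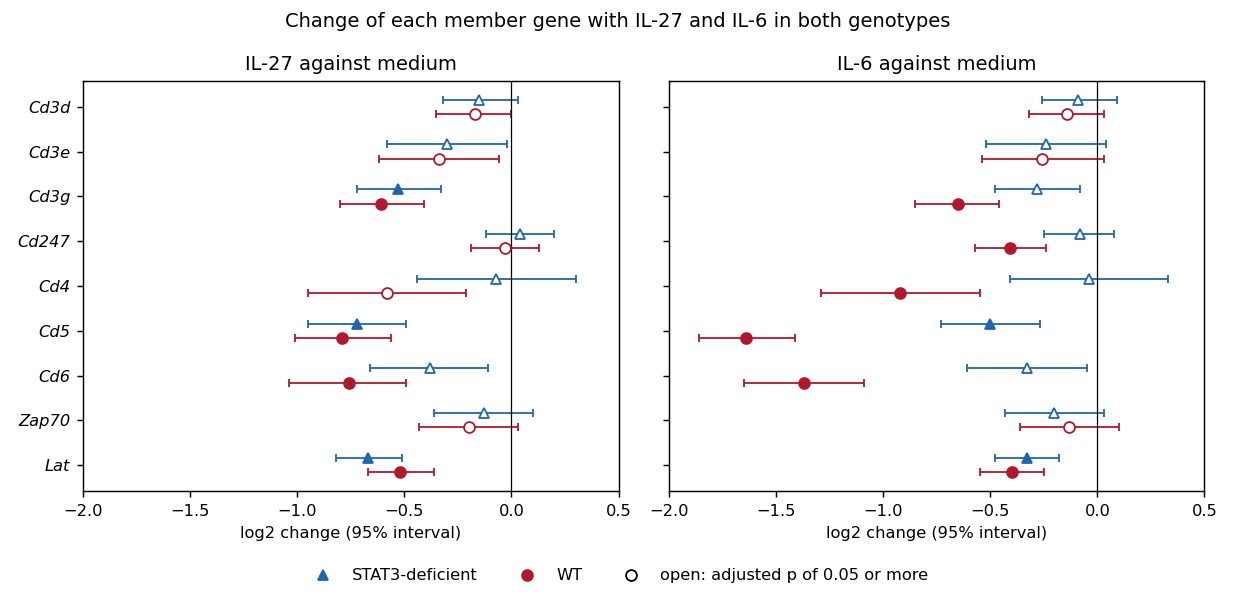
Change of each of the 9 genes with IL-27 (left) and IL-6 (right) against medium, in log2 units with 95% intervals from the limma model; triangles are STAT3-deficient cells, circles are WT cells, and filled symbols have an adjusted p under 0.05. With IL-6 Cd5 stands at -0.50 in STAT3-deficient cells and at -1.64 in WT cells, and with IL-27 at -0.72 and -0.79.

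Cd5 had the widest range of group means of the 9 genes. The signals were 3242.7, 3639.6 and 3398.8 in STAT3-deficient cells with IL-27, 4238.9, 3623.1 and 3969.4 with IL-6 and 5067.5, 5199.2 and 5215.5 in medium. In WT cells they were 3070.3, 4070.2 and 3592.2 with IL-27, 1630.7, 2114.4 and 2011.6 with IL-6 and 5824.4, 5993.2 and 6655.6 in medium. In WT cells all 3 groups lay apart from each other, with IL-6 lowest, while in STAT3-deficient cells both cytokine groups lay below medium and overlapped each other. IL-6 lowered Cd5 by 3.11-fold in WT cells (-1.64 ± 0.11, adjusted p = 4.34e-09), the change with rank 9 from the lowest among the 11971 genes. In STAT3-deficient cells the IL-6 change was -0.50 ± 0.11 (adjusted p = 0.0143), a call lost without 1 of 3 single STAT3-deficient arrays: medium replicate 1 (adjusted p = 0.0605), medium replicate 2 (adjusted p = 0.0588) or IL-6 replicate 2 (adjusted p = 0.0681). The difference between the changes was 1.14 ± 0.15 (95% interval 0.82 to 1.46, adjusted p = 0.000159).

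With IL-27 Cd5 fell in both genotypes, with changes of -0.72 ± 0.11 in STAT3-deficient cells (adjusted p = 0.000192) and of -0.79 ± 0.11 in WT cells (adjusted p = 8.11e-05), and the difference of 0.06 ± 0.15 had a 95% interval of -0.26 to 0.38. IL-27 against IL-6 gave -0.22 ± 0.11 in STAT3-deficient cells (adjusted p = 0.983) and left Cd5 higher by 0.85 ± 0.11 in WT cells (adjusted p = 5.37e-05). In medium Cd5 stood at -0.03 ± 0.11 between STAT3-deficient and WT cells, and at -0.79 with median centring (adjusted p = 0.000377), which moved the median of all genes too, as given below. From the highest group mean down, the order on normalised values was WT medium, STAT3-deficient medium, STAT3-deficient with IL-6, STAT3-deficient with IL-27, WT with IL-27 and WT with IL-6. The arrays overlapped between both medium groups and between both IL-27 groups, and on these values between no other neighbours in the order.

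Cd6, the coding gene next to Cd5 on chromosome 19 in the gene table used, followed a similar course in WT cells. Its signals were 1942.6, 2156 and 1610 in STAT3-deficient cells with IL-27, 2382.1, 1716.8 and 1802.6 with IL-6 and 2142.1, 2373.2 and 2540.7 in medium. In WT cells they were 1302.2, 1539.4 and 1496.2 with IL-27, 770.3, 1061.5 and 939.7 with IL-6 and 2730.5, 2610.6 and 2276.9 in medium. The 3 WT groups were apart from each other, and the 3 STAT3-deficient groups overlapped each other. IL-6 lowered Cd6 by 2.58-fold in WT cells (-1.37 ± 0.13, adjusted p = 6.76e-07), while the change in STAT3-deficient cells was -0.33 ± 0.13 (adjusted p = 0.453). The difference was 1.04 ± 0.19 (95% interval 0.65 to 1.43, adjusted p = 0.00266).

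With IL-27 the change of Cd6 was -0.38 ± 0.13 in STAT3-deficient cells (adjusted p = 0.124), and in WT cells Cd6 fell by 0.76 ± 0.13 on the log2 scale (adjusted p = 0.00101), with a difference between genotypes of 0.38 ± 0.19 (adjusted p = 0.677). IL-27 left it higher than IL-6 by 0.61 ± 0.13 in WT cells (adjusted p = 0.0104). That last call was lost without 1 of 3 single arrays: without WT IL-6 replicate 1 the adjusted p was 0.0832, without WT IL-27 replicate 2 it was 0.0623 and without WT IL-27 replicate 3 it was 0.0544. In the order of group means, WT with IL-27 and WT with IL-6 came last, each apart from its neighbours. The other 4 groups overlapped along the order.

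**Figure D3:**
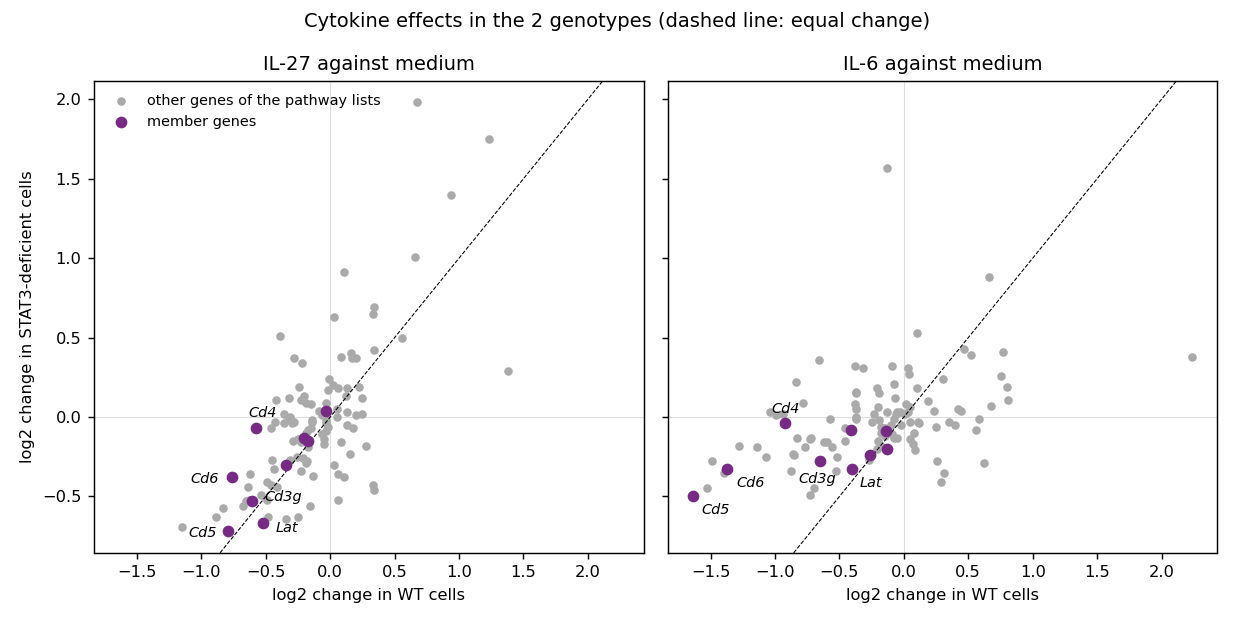
Change with cytokine in STAT3-deficient cells (vertical axis) against the change in WT cells (horizontal axis), in log2 units, for the 9 genes (purple) and the 104 other genes of the pathway lists (grey); the left panel shows IL-27 and the right panel IL-6. Cd5 lies near the dashed line of equal change with IL-27, at -0.72 and -0.79, and far above it with IL-6, at -0.50 and -1.64.

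Cd4, the coreceptor by which the cells were sorted, was read by a pair of probe sets. On 1419696_at, the one tested for the gene, the signals were 2908.5, 2210 and 2488.4 in STAT3-deficient cells with IL-27, 3389.7, 2430.3 and 2038.2 with IL-6 and 2687.9, 2232.5 and 2583.9 in medium. In WT cells they were 1668, 1533.7 and 1461.8 with IL-27, 1198, 1011.9 and 1455 with IL-6 and 2519.6, 2820.6 and 1915 in medium. The 3 STAT3-deficient groups overlapped, and the 3 WT groups did not. IL-6 lowered Cd4 by 1.89-fold in WT cells (-0.92 ± 0.18, adjusted p = 0.00153), and the IL-27 change of -0.58 ± 0.18 was not called (adjusted p = 0.0693), but passed in 8 of 20 alternatives, among them the deposited scale (adjusted p = 0.048), the mean of both probe sets (adjusted p = 0.0143) and array weights (adjusted p = 0.0128). In STAT3-deficient cells the changes were -0.07 ± 0.18 with IL-27 and -0.04 ± 0.18 with IL-6. The genotype difference in the IL-6 effect was 0.88 ± 0.25 (adjusted p = 0.0694), and it passed the test on the deposited scale (adjusted p = 0.0241) and with median centring (adjusted p = 0.0257).

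The dimmer Cd4 probe set, 1427779_a_at, read 318.9, 281.2 and 267.3 in STAT3-deficient cells with IL-27, 435.5, 435.1 and 375.6 with IL-6 and 401.3, 437 and 284.8 in medium. In WT cells it read 443, 531.4 and 342.5 with IL-27, 267, 224.6 and 239.1 with IL-6 and 673.2, 624 and 698.9 in medium. WT cells with IL-6 were the lowest group here too, and WT cells in medium the highest. In the fit over 26860 probe sets, the IL-6 change in WT cells was -1.22 ± 0.17 (adjusted p = 9.42e-05), where 6.19% of probe sets were called. The genotype difference in the IL-6 effect was called on this probe set, at 1.49 ± 0.24 (adjusted p = 0.00172), where 2.21% were. Both probe sets fell with IL-6 in WT cells, but between genotypes in medium they disagreed: 1427779_a_at was lower in STAT3-deficient cells, at -0.98 ± 0.17 (adjusted p = 0.000733, with 24.3% of probe sets called), and 1419696_at stood at 0.22 ± 0.18.

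The CD3 chains, which hold the receptor on the surface and carry its signalling motifs, behaved differently from each other although Cd3g, Cd3d and Cd3e are adjacent coding genes on chromosome 9. Cd3g read 8422.4, 7478.6 and 7515.7 in STAT3-deficient cells with IL-27, 10559.1, 7505.2 and 9364.4 with IL-6 and 9938.5, 8939.5 and 11173.8 in medium. In WT cells it read 9811.8, 8982.8 and 8644.8 with IL-27, 8884.5, 8545.1 and 8656.5 with IL-6 and 13890.8, 13794.8 and 12674.6 in medium. The WT medium arrays were the highest of all, and both WT cytokine groups overlapped each other.

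In STAT3-deficient cells Cd3g was lower with IL-27, at -0.53 ± 0.09 (adjusted p = 0.00133, and 0.084 on the deposited scale), and with IL-6 the change was -0.28 ± 0.09 (adjusted p = 0.254). In WT cells it was lower with both cytokines, at -0.61 ± 0.09 with IL-27 (adjusted p = 0.000342) and -0.65 ± 0.09 with IL-6 (adjusted p = 7.95e-05). The genotype difference in the IL-6 effect was 0.37 ± 0.13 (adjusted p = 0.193). In medium the genotypes differed by -0.15 ± 0.09 on normalised values (adjusted p = 0.239), although the deposited signals did not overlap.

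Cd3d, whose start lies beside that of Cd3g in the promoters shown, was not called with either cytokine. Its signals were 21808.7, 19982.8 and 18323.4 in STAT3-deficient cells with IL-27, 23844.6, 17385.7 and 19627.9 with IL-6 and 19637, 20180.6 and 21384.8 in medium. In WT cells they were 29100.5, 31046.8 and 33655.4 with IL-27, 29060.8, 30335.6 and 31324.7 with IL-6 and 31345.1, 35870.1 and 34149.4 in medium. All 9 STAT3-deficient arrays were below all 9 WT arrays. The changes in WT cells were -0.17 ± 0.08 with IL-27 (adjusted p = 0.348) and -0.14 ± 0.08 with IL-6 (adjusted p = 0.416). Cells without STAT3 had 1.38-fold less Cd3d than WT cells in medium (-0.47 ± 0.08, adjusted p = 0.000822).

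Cd3e went the other way between genotypes. It read 8094.5, 6965.6 and 6704.1 in STAT3-deficient cells with IL-27, 8534.6, 6374.2 and 7393.8 with IL-6 and 8459.5, 6401.6 and 9281.8 in medium. In WT cells it read 3226.2, 3553.1 and 2730 with IL-27, 3290.5, 3171.3 and 3657.4 with IL-6 and 4153.3, 4234.9 and 3697.6 in medium. Every STAT3-deficient array lay above every WT array, and the 3 STAT3-deficient groups overlapped. Cells without STAT3 had 2.35-fold more Cd3e than WT cells in medium (1.24 ± 0.13, adjusted p = 1.73e-05). Its changes with cytokine were not called, at -0.34 ± 0.13 with IL-27 and -0.26 ± 0.13 with IL-6 in WT cells.

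Between the genotypes in medium 2 of the 9 genes were higher in STAT3-deficient cells, Cd3e and Lat, and 1 was lower, Cd3d, a share close to the 26.6% of all genes called in that comparison, 13.8% higher and 12.9% lower. Groups did not overlap for 3 of the 9, against 41.7% of all genes. These values depend on the scaling of the arrays. On the deposited scale Cd3d, Cd3e and Lat stood at -0.73, 0.98 and 0.07, and with each array centred on its median at -1.27, 0.44 and -0.47. Under median centring Lat turned to lower (adjusted p = 0.0129) and Cd3e lost the call (adjusted p = 0.0564), and on the deposited scale Lat lost it (adjusted p = 0.528). Median centring moved the median of all genes to -0.40 in this comparison, against 0.03 with quantile normalisation. The genotypes also differ in the B cell and myeloid marker signal given above, with 7 of 10 B cell markers tested higher and none lower in STAT3-deficient cells, and 5 of 11 myeloid markers higher and 2 lower. With that signal as a covariate Cd3d stood at -0.73 (adjusted p = 0.0489), Cd3e at 1.49 (adjusted p = 0.0211) and Lat at 0.46 (adjusted p = 0.136). The covariate, a mean of log2 marker signals, was 8.15 to 8.71 on the STAT3-deficient arrays and 7.16 to 7.4 on the WT arrays. Because these ranges do not overlap, it is largely confounded with genotype, and the adjusted values rest on extrapolation.

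Cd247, which encodes the zeta chain, was read on 1426396_at at 10186.1, 11244.6 and 8590.7 in STAT3-deficient cells with IL-27, 9501.1, 8270.5 and 8741.2 with IL-6 and 8830.8, 8308.5 and 8572.3 in medium. In WT cells it read 10375, 10766.8 and 10166.7 with IL-27, 7828.8, 8028.7 and 7632.3 with IL-6 and 9874.3, 10916.7 and 10036.3 in medium. The WT arrays with IL-6 were the lowest of all groups, and the WT arrays with IL-27 overlapped those in medium. In WT cells Cd247 was lower with IL-6, at -0.41 ± 0.08 (adjusted p = 0.00158), while IL-27 gave -0.03 ± 0.08 (adjusted p = 0.91). IL-27 against IL-6 left it higher by 0.38 ± 0.08 in WT cells (adjusted p = 0.00703), a call lost with the mean of all its probe sets (adjusted p = 0.184).

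Of the other Cd247 probe sets, a pair was also lower with IL-6 in WT cells and 1 was not called. In the fit over probe sets 1420716_at stood at -0.74 ± 0.15 (adjusted p = 0.00346) and 1452539_a_at at -0.62 ± 0.15 (adjusted p = 0.0116), and 1426079_at stood at -0.15 ± 0.19 (adjusted p = 0.812). With IL-27 in WT cells these 3 stood at -0.53 ± 0.15 (adjusted p = 0.0649), -0.27 ± 0.15 (adjusted p = 0.473) and 0.06 ± 0.19 (adjusted p = 0.947), and none was called between IL-27 and IL-6 in WT cells, at 0.21, 0.34 and 0.21, the lowest adjusted p being 0.392. Between genotypes in medium the probe sets disagreed. 1420716_at and 1452539_a_at were lower in STAT3-deficient cells, at -0.61 ± 0.15 (adjusted p = 0.00757) and -0.77 ± 0.15 (adjusted p = 0.0013), whereas 1426396_at stood at 0.01 and 1426079_at at 0.40 ± 0.19 (adjusted p = 0.139).

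**Figure D4:**
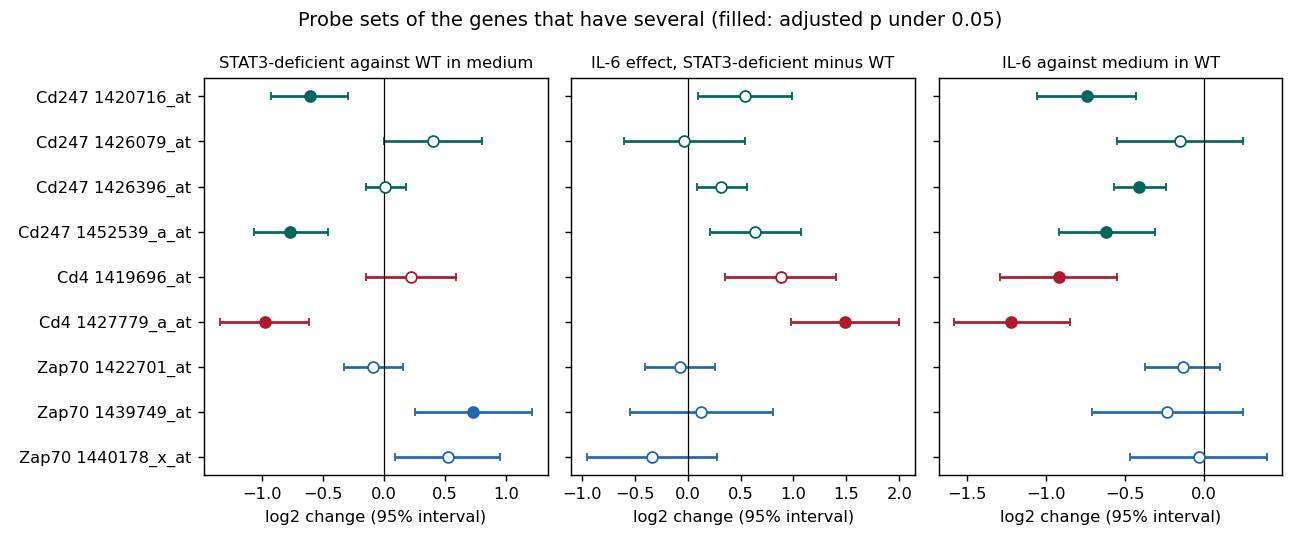
Change in log2 units with 95% intervals for each probe set of Cd247, Cd4 and Zap70, the genes with more than 1, in the fit over 26860 probe sets; the panels show STAT3-deficient against WT cells in medium, the genotype difference in the IL-6 effect, and IL-6 against medium in WT cells, and filled points have an adjusted p under 0.05. The Cd4 probe sets stand on opposite sides of 0 between genotypes in medium, at -0.98 and 0.22, and both are lower with IL-6 in WT cells, at -1.22 and -0.92.

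Zap70, the kinase recruited to the phosphorylated chains, had the smallest range of group means of the 9, each read on the probe set tested. It was 0.29 log2 units, against 1.64 for Cd5, 1.57 for Cd3e and 1.4 for Cd6. On 1422701_at the 9 STAT3-deficient arrays lay between 1615.8 and 2138.1 and the 9 WT arrays between 1761.9 and 2383.2, and neighbouring groups overlapped throughout the order. Its changes in WT cells were -0.20 ± 0.11 with IL-27 (adjusted p = 0.437) and -0.13 ± 0.11 with IL-6 (adjusted p = 0.63). Of its other probe sets, 1439749_at was higher in STAT3-deficient than in WT cells in medium, by 0.73 ± 0.23 (adjusted p = 0.0269), and 1440178_x_at stood at 0.52 ± 0.21 (adjusted p = 0.074). Their group means spread more widely, from 9.82 to 10.78 on 1439749_at and from 9.73 to 10.28 on 1440178_x_at. On both, WT with IL-6 was lowest and STAT3-deficient medium highest.

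Lat, the adaptor on which downstream enzymes assemble, fell with both cytokines in both genotypes. It read 7743.5, 7033.4 and 6966.5 in STAT3-deficient cells with IL-27, 9531, 7913.5 and 9327.2 with IL-6 and 9727.4, 9988.7 and 10816.5 in medium. In WT cells it read 6656.6, 6565.4 and 7138.8 with IL-27, 7563.2, 7235.2 and 7269.9 with IL-6 and 9293.3, 9713.1 and 10049.6 in medium. Every cytokine group lay below the medium group of its genotype, and the IL-27 arrays lay below the IL-6 arrays in both genotypes. The changes with IL-27 were -0.67 ± 0.07 in STAT3-deficient cells (adjusted p = 3.26e-06) and -0.52 ± 0.07 in WT cells (adjusted p = 9.6e-05). With IL-6 they were -0.33 ± 0.07 in STAT3-deficient cells (adjusted p = 0.0143) and -0.40 ± 0.07 in WT cells (adjusted p = 0.000878). The IL-6 call in STAT3-deficient cells was lost without medium replicate 3 (adjusted p = 0.0666) or IL-6 replicate 2 (adjusted p = 0.0871), and median centring kept only the IL-27 call in WT cells. The difference between genotypes was -0.15 for IL-27 and 0.07 for IL-6, neither of them called.

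The 5 genes most like Cd5 over the 6 group means, each centred on its own mean, were Tesc, B4galnt1, Sox4, St8sia6 and Ptpn22, with root mean square differences of 0.0522, 0.0943, 0.0966, 0.123 and 0.134 log2 units. For Cd6 they were Galnt10 at 0.0408, Ptpn22 at 0.0753, Pde7a at 0.084, Btbd11 at 0.0952 and St8sia6 at 0.101. Ptpn22, a phosphatase that limits receptor signalling, and St8sia6, a sialyltransferase, stood on both lists. For Cd3e they were Gm9222 at 0.0529, Plagl1 at 0.0738, Rarg at 0.0884, Tle5 at 0.114 and Stox2 at 0.114.

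The other genes of the pathway were taken from 7 lists by role, 120 genes of which 104 were tested. IL-6 changed many of them in WT cells: 10 were higher and 29 lower, 37.5% of the 104 against 8.32% of all genes, with a median of -0.13. IL-6 in STAT3-deficient cells changed 2 upwards and 1 downwards, 2.88% of the 104, near the 1.85% of all genes. IL-27 changed 9 upwards and 11 downwards in STAT3-deficient cells, 19.2% against 4.98% of all genes, and 4 upwards and 12 downwards in WT cells, 15.4% against 4.71%. The IL-6 effect differed between genotypes for 18.3% of the 104, against 3.08% of all genes, 15 of them with a positive and 4 with a negative difference.

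Among other surface molecules, 5 of 11 were lower and 1 higher with IL-6 in WT cells. Thy1, a surface glycoprotein of T cells, stood at -1.53 ± 0.19, Sit1, an adaptor that limits receptor signalling, at -1.28 ± 0.16, and Cd96 at -1.14 ± 0.13, while Slamf6 rose by 0.75 ± 0.19. With IL-6 in STAT3-deficient cells these changes were -0.45 for Thy1, -0.18 for Sit1 and -0.19 for Cd96, not called. Of 10 kinases and their partners, Txk, a Tec family kinase, rose by 0.80 ± 0.08 and Fyn, a Src family kinase, fell by 0.57 ± 0.11 with IL-6 in WT cells.

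Adaptors moved both ways with IL-6 in WT cells, 3 of 23 higher and 8 lower. Skap2 rose by 2.24 ± 0.14, the largest increase of these lists in this comparison, and Grap2, which links LAT to the adaptor encoded by Lcp2, fell by 1.04 ± 0.15. Of 16 early enzymes and exchange factors 1 was higher and 4 were lower. Dgkz, a kinase that removes diacylglycerol, stood at -0.88 ± 0.08 and Rasgrp1, the Ras exchange factor that diacylglycerol recruits, at -0.86 ± 0.17. Of 16 phosphatases and ubiquitin ligases that limit the signal 2 were higher and 4 lower. Ptpn22 stood at -1.40 ± 0.14, Dusp2 at -1.49 ± 0.26 and Ubash3a at -0.94 ± 0.11, and Ptpn12 rose by 0.62 ± 0.11.

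In the calcium arm, 1 of 14 genes was higher and 4 were lower with IL-6 in WT cells. Stim2, a calcium sensor of the endoplasmic reticulum, rose by 0.81 ± 0.13, and the transcription factor genes Nfatc2 and Nfatc3 were lower, at -0.62 ± 0.15 and -0.56 ± 0.08. In the NF-kB and MAP kinase arms, 1 of 14 was higher and 2 were lower: Mapk9 rose by 0.66 ± 0.14, Mapk14 stood at -0.83 ± 0.11 and Ikbkb at -0.46 ± 0.13. The markers of naive CD4 T cells moved in the same comparison, 6 of 8 lower and none higher, against 4.65% of all genes lower. Their summed signal was 76500 to 81500 in WT cells with IL-6 and 111000 to 118000 in medium. With IL-27, 4 of 8 were lower and 1 higher in STAT3-deficient cells, against 1.7% of all genes lower and 4.98% called. In WT cells 5 of 8 were lower with IL-27, against 2% and 4.71%. With IL-6 in STAT3-deficient cells 0 of 8 were called, against 1.85% of all genes. Their IL-6 effect differed between genotypes for 3 of 8, all with a positive difference. Of all genes 1.83% passed with a positive difference and 3.08% in either direction. Thy1, Cd2, Cd28 and Skap1 stand both among these 8 markers and in the pathway lists, so both sets of counts share genes. The summed B cell markers were 3760 to 4390 with IL-6 and 6430 to 6940 in medium in WT cells, and the myeloid markers 808 to 1040 and 1110 to 1380. Single genes carried most of both gaps, Ighm with a mean of 2690 with IL-6 and 5460 in medium, and Fcgr3 with 99.7 and 357. Over the lists 1 of 10 B cell and 1 of 11 myeloid markers tested were lower, with medians of 0.03 and -0.05. The part of the naive T cell marker decrease in the changes of the 9 genes was not tested. With the B cell and myeloid marker signal as a covariate, the IL-6 changes in WT cells were -1.64 for Cd5 (adjusted p = 9.14e-09) and -1.34 for Cd6. The differences between genotypes were then 1.15 (adjusted p = 0.000243) and 0.98 (adjusted p = 0.00411). On the WT medium and IL-6 arrays this covariate ran only from 7.16 to 7.32, so it could move the WT changes little.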

How the data were processed

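The deposited table holds 1 value per probe set and array for 18 arrays in 6 groups of 3. Its values are intensity, a linear signal made by the authors with GCOS, per the submitters' processing notes, for which no version, algorithm or genome build is named. Each array has a mean of 500.0 once the top and bottom 2% are trimmed, and no pair of arrays is identical. Array medians ran from 104.4 to 190.3, a 1.82-fold range. The number of arrays limits the precision, and the standard errors do not cover the choice of scaling.

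The deposited signals were turned into log2(signal + 32), which understates changes of dim probe sets, and quantile normalised with limma 3.58.1 in R 4.3.3. Control probe sets (64) were left out. Of the others 34945 had 1 symbol, 932 several and 9160 none in the annotation used. Probe sets above the median of their own array on at least 3 arrays were kept (26860), and each gene was read from its single-symbol probe set with the highest mean (11971 genes); a second fit took all probe sets kept.

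A limma model with a mean per group was fitted to all 18 arrays (12 residual and 6.25 prior degrees of freedom, variance trend). It gave 9 two-sided comparisons: within each genotype both cytokines were set against medium and then IL-27 against IL-6; both interactions; and STAT3-deficient against WT in medium. Calls needed a Benjamini-Hochberg adjusted p under 0.05 over all genes tested. The median SE was 0.185 for groups and 0.262 for interactions. The model fit alone was tried on simulated log2 values, for IL-6 against medium in WT cells. The scaling, the filter, the choice of probe set and the interactions were not tried in this way.

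The genes and lists were chosen with earlier results of these data known. From each pathway list, up to 3 genes per direction and comparison with the largest changes were named, among called genes whose groups do not overlap; for the 3 members with the widest range of group means, the 5 nearest genes were named. Alternatives were the deposited scaling, median centring, added constants of 16 and 64, other filters, the mean of a gene's probe sets, no variance trend, array weights, blocks by sample number, a marker covariate, fewer arrays, and leaving out each array in turn.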

Additional observations from a re-analysis of the deposited data

Results flagged for a closer look

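The results here stand out because the effect of IL-6 differed between genotypes by the interaction test; each value is the IL-6 change in STAT3-deficient cells minus that in WT cells, in log2 units, from the limma fit with an adjusted p under 0.05. No outlier test was made within groups of 3; values without each array in turn are among the alternatives. Among the receptor complex and coreceptor genes the differences were 1.14 for Cd5 and 1.04 for Cd6. In the fit over all probe sets kept, the Cd4 probe set 1427779_a_at stood at 1.49. On 1419696_at, the probe set tested for Cd4, the difference of 0.88 was not called (limma adjusted p = 0.0694).

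Among the other genes of the pathway, differences were positive for the surface molecules Sit1 (1.10), Thy1 (1.08) and Cd96 (0.94), and for the adaptors Grap2 (1.07), Sh2d2a (1.06) and Sla2 (1.02). They were positive for the early signalling genes Rasa3 (0.59), Rac2 (0.59) and Dgkz (0.54), for the inhibitory phosphatase gene Ptpn22 (1.05), for Ubash3a (0.97) and for Mapk14 (0.69). In WT cells IL-6 had lowered each of these 12 genes. At most 3 genes per list and direction are named here. Of 15 pathway genes with a positive difference, that limit left out Grap (0.99), Cd28 (0.82) and Ptprcap (0.61). Differences were negative for Skap2 (-1.86), Ptpn12 (-0.91), Stim2 (-0.70) and Txk (-0.61), which IL-6 had raised in WT cells. For the checks of genotype and treatment the differences were -0.87 for Stat3 and -3.41 for Socs3.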

How the results depend on the processing

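Leaving out each array in turn gave 6 members called for IL-6 in WT cells, 4 to 5 for IL-27 in WT cells, 2 to 3 for IL-27 against IL-6 in WT cells, 0 to 2 for IL-6 and 3 to 4 for IL-27 in STAT3-deficient cells, 0 to 1 for IL-27 against IL-6 in STAT3-deficient cells, 2 to 3 for the IL-6 interaction, 0 for the IL-27 interaction and 3 between genotypes in medium. The counts over all genes in WT cells were then 748 to 865 for IL-6, 393 to 467 for IL-27 and 278 to 298 for IL-27 against IL-6. In STAT3-deficient cells they were 179 to 201, 428 to 703 and 24 to 49 in the same order. For the IL-6 interaction they were 270 to 382, for the IL-27 interaction 2 to 4, and between genotypes 2028 to 2943. The count of 2 for IL-6 in STAT3-deficient cells became 0 on the deposited scale, with median centring, with no variance trend and when the 3 arrays numbered 3 of that genotype were left out, and 1 with only the arrays compared. Over all genes that count ran from 127 to 301 under the alternatives other than leaving out 1 array, against 221. Median centring gave 1 in place of 3 for IL-27 against IL-6 in WT cells, where all genes called went from 376 to 205. It gave 0 in place of 3 for IL-27 in STAT3-deficient cells. Between genotypes it gave 7 in place of 3, while all genes called rose from 3190 to 5910. The mean of all probe sets gave 5 members there. For IL-27 against IL-6 in STAT3-deficient cells the stricter filter, the mean of probe sets and array weights gave 1 in place of 0. The replicate block, overall and within genotype, also gave 1 there, and the block within genotype gave 4 in place of 2 for the IL-6 interaction, with Cd3g (adjusted p = 0.0154) among them, and 3 in place of 2 for IL-6 in STAT3-deficient cells, again with Cd3g (adjusted p = 0.0153).

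Between genotypes in medium, directions turned for Cd247 (-0.26 on the deposited scale, -0.80 with median centring), for Cd6 and Lat with median centring (-0.65 and -0.47), and for Cd4 and Zap70 with the mean of probe sets (-0.38 and 0.39). A sign that changed where neither value was called was not counted as turned. Counts over all genes moved by over 1.5 times for IL-27 in WT cells from 564 to 347 with median centring and 931 with array weights. For IL-27 against IL-6 in WT cells, 376 became 205 with median centring and 588 with the block within genotype. In STAT3-deficient cells, 47 for IL-27 against IL-6 became 13 with median centring, 28 with no variance trend, 74 with the block within genotype and 17 with only the arrays compared, which also took IL-6 from 221 to 127 and IL-27 from 596 to 358. The IL-6 interaction went from 369 to 635 with the block within genotype, and the IL-27 interaction from 2 to 1 with the mean of probe sets, 13 with array weights and 6 without the arrays numbered 3. Between genotypes, 3190 became 5910 with median centring and 532 with the marker covariate, whose range does not overlap between genotypes. Leaving out 1 array moved 8 of 66 such counts by over 1.5 times: 3190 to as few as 2028 (without WT medium replicate 1, and likewise 2060 without WT medium replicate 2 and 2077 without STAT3-deficient medium replicate 1), 47 to 24 and 29 without STAT3-deficient IL-6 replicates 2 and 3 and to 26 and 31 without STAT3-deficient IL-27 replicates 1 and 2, and 2 to 4 without STAT3-deficient IL-27 replicate 3. Apart from the alternative's own loss of arrays, the cause was not tested.

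Of the members' log2 changes, 580 of 594 kept their call status when an array was left out, and 1079 of 1134 under the other alternatives. Called changes counted as kept only with the same direction, and changes called in neither fit counted as kept whatever their sign. Cd5 and Cd6 kept the IL-6 call in WT cells and the IL-6 interaction under every alternative, with interactions from 1.02 to 1.5 for Cd5 (adjusted p up to 0.00212) and from 0.91 to 1.39 for Cd6 (adjusted p up to 0.0104). The Cd4 interaction passed in 10 of 26 (adjusted p from 0.000862 to 0.187). Same-numbered arrays of a genotype correlated at a median of 0.145 in their deviations from the group means (-0.15 to 0.36 over 18 pairs, 11 of them over 0.1), against a median of -0.06 for other pairs of a genotype. The labels do not explain the numbers and not every pair was over 0.1, so the block stayed an alternative. Of the 18 arrays 14 correlated best with an array of their own number, a hint from the data and not from the design. Without detection calls, signal over background is unknown.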

Other observations

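IL-27 in STAT3-deficient cells raised several pathway genes. Vav3, a guanine nucleotide exchange factor, rose by 1.98 ± 0.29 (adjusted p = 0.000147) and was also higher than with IL-6, by 1.45 ± 0.29 (adjusted p = 0.029). Sla, an adaptor that limits receptor levels, rose by 1.75 ± 0.35 with IL-27 (adjusted p = 0.00435) and by 1.57 ± 0.35 with IL-6 (adjusted p = 0.0206) in STAT3-deficient cells. Mapk9 rose with both cytokines in both genotypes, by 1.01 ± 0.14 with IL-27 and 0.88 ± 0.14 with IL-6 in STAT3-deficient cells, and by 0.66 ± 0.14 with either cytokine in WT cells. The kinase genes Prkcq and Map4k1 rose by 0.69 ± 0.16 (adjusted p = 0.0133) and 0.65 ± 0.16 (adjusted p = 0.0203) with IL-27 in STAT3-deficient cells. In WT cells the IL-27 changes were 0.67 ± 0.29 for Vav3, 1.23 ± 0.35 for Sla, 0.34 ± 0.16 for Prkcq and 0.33 ± 0.16 for Map4k1, none called. With IL-6 Sla stood at -0.13 ± 0.35 there, and its genotype difference in the IL-6 effect, 1.70 ± 0.50, was not called (limma adjusted p = 0.0821). For the IL-27 effect, none of the 104 pathway genes passed the interaction test between genotypes.

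Between the genotypes in medium, Pik3cd, the leukocyte phosphoinositide 3-kinase subunit, was higher in STAT3-deficient cells by 3.02 ± 0.15 (adjusted p = 2.44e-10). In the same comparison Plcg1, the phospholipase that LAT recruits, was higher by 0.82 ± 0.14 (adjusted p = 0.000612), and the Tec family genes Tec and Txk stood at -0.86 ± 0.10 (adjusted p = 3.88e-05) and -0.66 ± 0.08 (adjusted p = 3.36e-05). Of the 104 pathway genes tested, 18 were higher and 17 lower in this comparison. That was 33.7%, against 26.6% of all genes. Each gene was read here from a single probe set, and values of other probe sets are not given. Probe sets of Cd4 and of Cd247 disagreed in this comparison. Median centring moved the median of all genes in this comparison to -0.40. With the marker covariate, which is largely confounded with genotype, the count of all genes called went from 3190 to 532.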
